A study of Daphnia magna with 3 samples.

Results

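In the water flea Daphnia magna, 56 rarely counted transcripts drew most of their signal from eggs. They were chosen from 33957 model transcripts by 3 conditions. A transcript had 10 to 99 reads over all 21 libraries, at least 1 read in each of the 3 egg libraries, and at least 80% of its summed level in eggs. The level was counts per 1000000 reads of a library (CPM), averaged over the 3 replicates of a body part and summed over 7 body parts. Up to 300 transcripts would have been kept, and all 56 that met the conditions were. The higher level in eggs is what chose these transcripts, so it is described below and not tested.

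Daphnia females reproduce mainly by parthenogenesis and carry their eggs in a brood chamber between the carapace and the trunk, where the embryos develop directly into juveniles. An animal egg is filled during oogenesis with maternal RNA and yolk, and maternal RNA directs development until the embryo transcribes its own genome. Eggs can therefore hold maternal RNA, RNA of the embryo or both, depending on their age, which the labels do not give.

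Eggs were compared with hemocytes (the circulating cells of the hemolymph), gut, antenna, head, carapace and carcass, all from animals of genotype IL-M1-8 under a standard laboratory protocol. Cultures stood at 20 °C in ADaM, an artificial Daphnia medium, with 20 mL for each adult and 100000 algal cells per mL each day. Each replicate, numbered 3, 4 or 7, was 1 pool of 7 barcoded libraries read as cDNA on an Oxford Nanopore instrument. The labels do not say which animals entered a pool or whether pools came from separate cultures, so the spread between replicates may be technical. In such bulk material fewer cells of a type and less RNA per cell cannot be told apart. Egg libraries held 159154 to 326037 reads and the other 18 libraries 4161 to 1105094. The identifiers carry a contig and a gene number but no gene name, 0 of them matched the RefSeq gene table, and the files give no coordinates. Egg markers and functions of the transcripts could therefore not be looked up, and the body part is taken from the label alone.

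Confined is too strong a word for these transcripts, because 53 of the 56 had at least 1 read outside eggs. Of their 1481 reads, 1222 (82.5%) came from eggs and 259 from the other body parts. The number of reads outside eggs ran from 0 to 15 per transcript with a median of 3. Eggs held 80.2% to 100% of the summed CPM, with a median of 84.6%. As a share of plain reads, which weights the deepest libraries most, eggs held 66.7% to 100%, and 20 transcripts were below 80% by that measure. The 3 with no read outside eggs were maker-falcon_000045F-snap-gene-6.88-mRNA-1, maker-falcon_000010F-augustus-gene-1.94-mRNA-1 and genemark-falcon_000001F-processed-gene-36.25-mRNA-1, picked out here after their values were seen. They had 14, 13 and 11 reads in all, so that a handful of reads separates them from the rest.

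**Figure D1:**
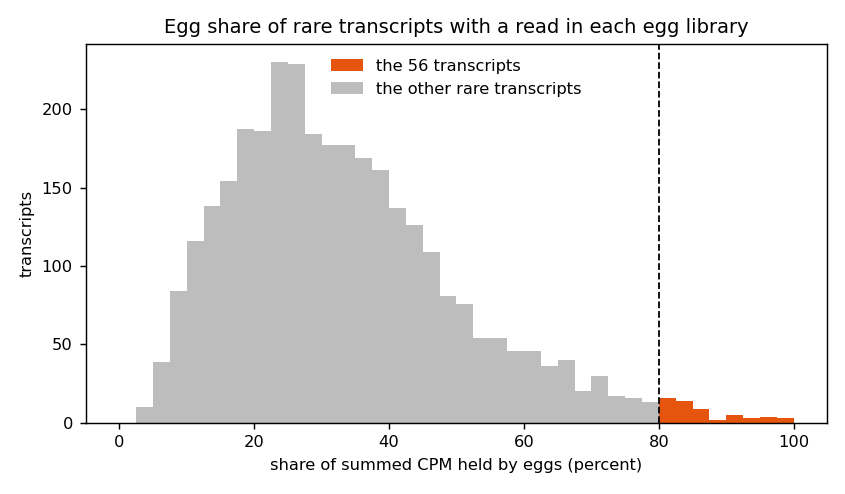
Share of the summed CPM of 7 body parts that eggs held (horizontal axis, percent) for 3198 transcripts with 10 to 99 reads and a read in each egg library, as numbers of transcripts (vertical axis). The dashed line marks 80%, and the 56 transcripts to its right are the tail of a distribution with no gap at the line.

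The chosen transcripts were the upper tail of a continuous distribution. Of 6663 transcripts with 10 to 99 reads, 3198 had a read in each egg library, and the 56 are 1.75% of those. The other 3142 had a median egg share of 30.2%, with quartiles of 20.8% and 42.0%. A share of at least 70% was reached by 132 and a share of at least 90% by 15. Just inside the line lay maker-falcon_000003F-augustus-gene-23.99-mRNA-1 at 80.2% and maker-falcon_000031F-augustus-gene-12.100-mRNA-1, also at 80.2%. Just outside lay maker-falcon_000003F-augustus-gene-25.7-mRNA-1 at 79.6% and snap_masked-falcon_000011F-processed-gene-2.133-mRNA-1 at 79.5%. The first inside and the first outside differ by 1 egg read of replicate 7, with 8, 1 and 8 egg reads against 8, 1 and 7, and had 5 reads each elsewhere.

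Added together, the 56 transcripts had a summed level of 1922 CPM in eggs of replicate 3, 2337 CPM in replicate 4 and 1570 CPM in replicate 7 (mean 1943 ± 384, SD, n = 3). Carcass followed with 45.8, 96.0 and 197 CPM (113 ± 76.9, SD, n = 3). Carapace had 8.04, 177 and 9.42 CPM (64.7 ± 96.9, SD, n = 3). Each egg library was above each other library in this sum, and the libraries of carcass and carapace overlapped. Hemocytes had 16.7, 78.3 and 81.3 CPM (58.7 ± 36.5, SD, n = 3). The head had 97.4, 0 and 5.77 CPM (34.4 ± 54.6, SD, n = 3). Gut had 0, 0 and 75.8 CPM (25.3 ± 43.8, SD, n = 3), and antenna 20.2, 0 and 49.8 CPM (23.3 ± 25, SD, n = 3). The replicates of each of these 6 body parts differed widely, and their ranges overlapped.

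**Figure D2:**
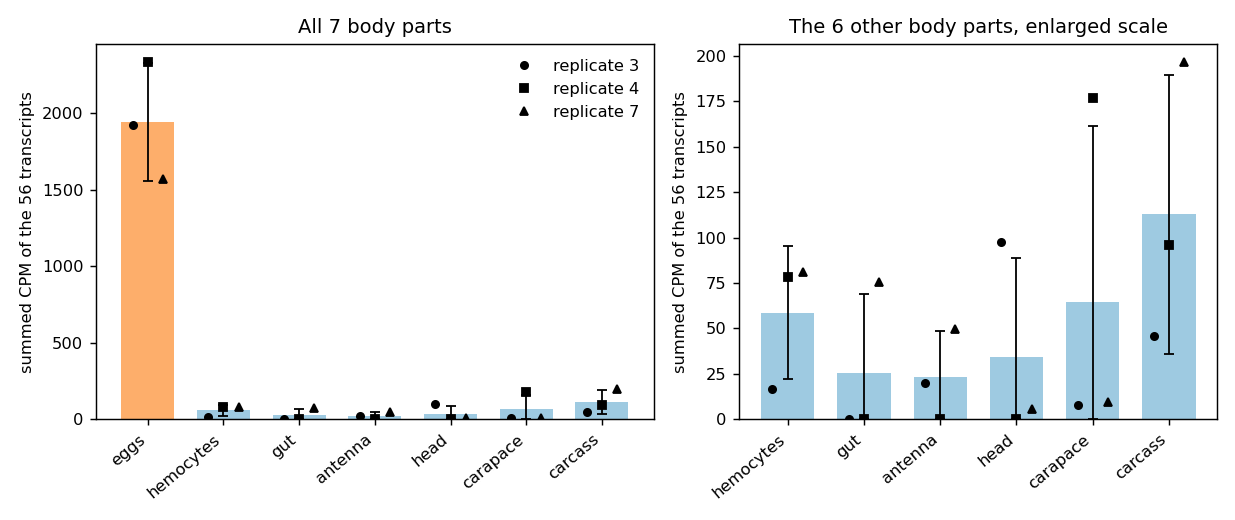
Summed CPM of the 56 transcripts (vertical axis) in each body part (horizontal axis), with all 7 body parts on the left and the 6 others on an enlarged scale on the right. Bars are means of 3 replicates, error bars are SD stopped at 0, and symbols are single libraries. Eggs lie between 1570 and 2337 CPM and no other library exceeds 197 CPM.

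The zeros differ in what they allow. A count of 0 is taken to allow 3 reads, which covers counting error only. In the head library of replicate 4, with 249289 reads, 0 reads of the 56 transcripts allow a summed level of up to 12.0 CPM, far under the 1943 CPM of eggs. In the gut library of replicate 3 the limit was 93.2 CPM and in the antenna library of replicate 4 it was 51.2 CPM. In the gut library of replicate 4, with 4161 reads, the limit was 721 CPM, and the egg level would have given 8.09 reads. For a single transcript that library says little, since 1 read was worth 240 CPM in it and the 56 averaged 9.97 to 126 CPM in eggs. In the gut libraries of replicates 3 and 7, 1 read was worth 31.1 and 37.9 CPM.

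The most counted of the 56 was maker-falcon_000004F-augustus-gene-16.89-mRNA-1, with 98 reads on a model of 1604 bases. It had 23, 19 and 42 reads in eggs of replicates 3, 4 and 7, and 14 reads in the 18 other libraries, of which 6 were in the carcass of replicate 7. Its level in eggs was 126 ± 6.09 CPM (SD, n = 3), the steadiest of the 56, with 1.1-fold between the highest and the lowest egg library. Next came maker-falcon_000007F-snap-gene-7.53-mRNA-1, with 89 reads on 1117 bases. It had 13, 16 and 45 reads in eggs, and 15 elsewhere, of which 5 were in hemocytes of replicate 7 and 6 spread evenly over the 3 carcass libraries. These are also the 2 that pass the usual low-count filter of edgeR (filterByExpr), which leaves out the other 54.

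**Figure D3:**
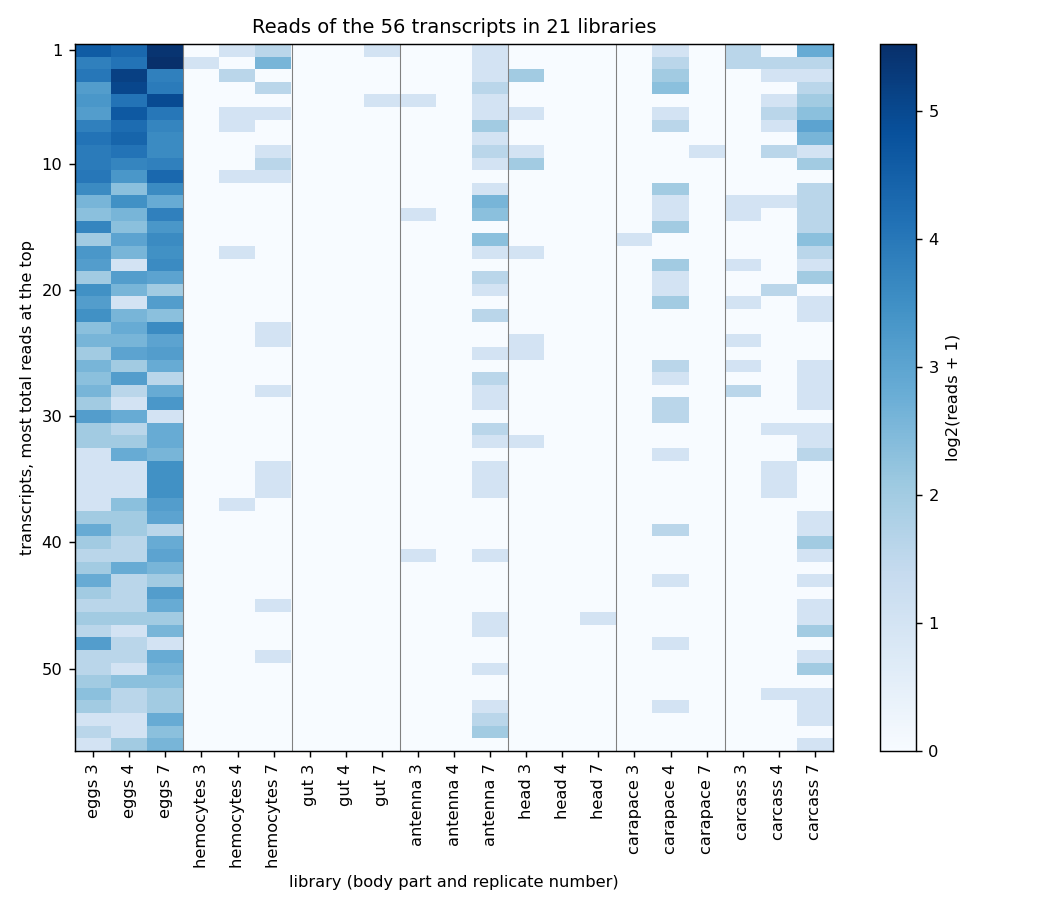
Reads of each of the 56 transcripts (rows, from most to fewest total reads) in the 21 libraries (columns, grouped by body part), coloured by log2(reads + 1), with the palest shade for 0 reads. The 3 egg columns are filled in every row, and the scattered reads elsewhere gather in the columns of carcass replicate 7, antenna replicate 7 and carapace replicate 4.

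Most of the 56 rest on few reads. Between 10 and 19 reads were counted for 31 of them, 20 to 49 for 17 and 50 to 99 for 8. Egg reads alone ran from 7 to 84 with a median of 14. Per length, levels in eggs spanned 3.52 to 387 reads per kilobase per 1000000 reads of the library, with a median of 23.4. The other rare transcripts with a read in each egg library had a median of 10.7 on that scale. The highest levels per length belonged to 2 short models, maker-falcon_000034F-snap-gene-4.48-mRNA-1 (210 bases, 387 ± 126, SD, n = 3) and maker-falcon_000085F-snap-gene-1.59-mRNA-1 (312 bases, 369 ± 300.1, SD, n = 3). The first had 9, 16 and 30 egg reads and the second 15, 35 and 13. Not divided by length, egg levels had medians of 22.6 CPM in the chosen and 22.0 CPM in the other rare transcripts. Whether reads rise with model length in these Nanopore cDNA libraries was not tested. Values per length, which favour short models, are therefore not taken as amounts of RNA.

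The highest and the lowest egg library differed by about 2.5-fold for a typical transcript of the 56. The 56 and the other 3142 were both required to have a read in each egg library. Transcripts missing from an egg library were thus left out beforehand, and agreement between replicates cannot be read from this spread. The ratio of the highest to the lowest egg CPM had a median of 2.53 among the 56 (range 1.1 to 14.8) and 2.34 among the other 3142. It was under 2 for 20 of the 56 and over 5 for 12. The largest ratio, 14.8, was shared by maker-falcon_000000F-snap-gene-5.46-mRNA-1, with 8, 2 and 1 egg reads, and maker-falcon_000049F-snap-gene-0.83-mRNA-1, with 8, 6 and 1. No egg library dominated. Replicate 3 was the highest for 18 of the 56, replicate 4 for 21 and replicate 7 for 17. A single read stood for at least 1 egg library in 15 of the 56. In 46 of the 56, each egg library was above each of the 18 others in CPM. The same held for 8.74% of all 11259 transcripts with at least 10 reads, and nothing is read from the difference, since the choice used these values.

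The reads outside eggs were spread unevenly over libraries. Carcass gave 111 of the 259, on 46 transcripts, and antenna 58, on 34 transcripts. Carapace gave 44, hemocytes 31, head 13 and gut 2. Within a body part they came mostly from 1 replicate. Of the carcass reads 73.9% were in replicate 7, of the antenna reads 94.8% in replicate 7, of the carapace reads 95.5% in replicate 4 and of the head reads 92.3% in replicate 3. The antenna library of replicate 7 had 1105094 reads, and its 55 reads were 49.8 CPM, against 20.2 and 0 CPM in replicates 3 and 4. The carapace library of replicate 4, with 237842 reads, had 42 reads of 23 transcripts, and those of replicates 3 and 7, with 124318 and 106131 reads, had 1 each, a gap wider than that in depth. The head library of replicate 3, with the fewest reads of the 3 heads, had 12 reads of 8 transcripts. The other 3142 rare transcripts were also higher in the carapace of replicate 4, at 39627 CPM against 25757 and 21718 in replicates 3 and 7. In the head of replicate 3 they had 53613 CPM, against 8957 and 16581 in replicates 4 and 7. In the carcass of replicate 7 they had 44522 CPM, against 35902 and 35197 in replicates 3 and 4. They were not higher in the antenna of replicate 7, at 22871 CPM against 25549 and 22906 in replicates 3 and 4. Nor were they in hemocytes of replicate 7, at 22244 CPM against 35767 and 53632. Whether the level of the 56 follows that of the other rare transcripts was not tested.

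Differences among the 6 other body parts were bounded by the choice, since a transcript high in one of them could not hold 80% in eggs. A joint test of these differences is therefore given as a description, and nothing is read from its count. With all 21 libraries in 1 edgeR quasi-likelihood model, 0 of the 56 differed among hemocytes, gut, antenna, head, carapace and carcass at an adjusted p of 0.05 (joint test, Benjamini-Hochberg over 11259 transcripts with at least 10 reads). Of all transcripts tested, 9.9% did. At an unadjusted p under 0.05 there were 0 of the 56 by edgeR (20.3% of all), 0 by DESeq2 (13.9% of all) and 25, or 44.6%, by limma voom (25.5% of all). After adjustment DESeq2 called 0 (7.54% of all, with 51 of the 56 given no adjusted p) and limma voom 0 (7.46% of all). The lowest adjusted p among the 56 was 0.31, for maker-falcon_000007F-snap-gene-7.53-mRNA-1, and the next was 0.444, for maker-falcon_000004F-augustus-gene-16.89-mRNA-1 (edgeR, both). Over the alternatives these ran from 0.161 to 0.849 and from 0.155 to 0.934. With at most 15 reads per transcript in the 18 libraries, and with differences bounded by the choice, the count of 0 does not show equal levels. The part of depth and that of the choice cannot be told apart.

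In the same model the egg level lay above the mean of the 6 other body parts by a median log2 fold change of 3.73 over the 56 (2.87 to 5.50), against 0.06 over all transcripts tested. All 56 were called higher in eggs (edgeR, adjusted p under 0.05), as were 14% of all tested. This is the contrast that chose them, so the count is no support. With plain library totals in place of TMM factors (trimmed mean of M-values, which scales libraries to a common majority of transcripts), both medians shift upward, to 4.52 over the 56 and 0.77 over all. They were lower over the 56 by the other tools, at 3.10 by DESeq2 (0.17 over all) and 1.46 by limma voom (-0.48 over all). The size of the difference thus depends on the tool.

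The choice was repeated on 2 replicates and read in the one left out, which gives egg levels in libraries that took no part. Replicates 4 and 7 chose 57 transcripts, whose summed level in replicate 3 was 1785 CPM in eggs and 161 CPM on average in the 6 other body parts. Replicates 3 and 7 chose 55, with 2155 CPM in eggs and 123 CPM elsewhere in replicate 4. Replicates 3 and 4 chose 50, with 1945 CPM in eggs and 259 CPM elsewhere in replicate 7. Eggs thus held 64.9%, 74.4% and 55.6% of the summed CPM in the replicate left out (65.0% ± 9.42, SD, n = 3), below the 80% of the choice in each. The other transcripts of the same read range with a read in both choosing egg libraries gave 26.1%, 28.5% and 26.1%. The 3 choices share replicates, so the SD of 9.42 is not a spread of independent values.

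**Figure D4:**
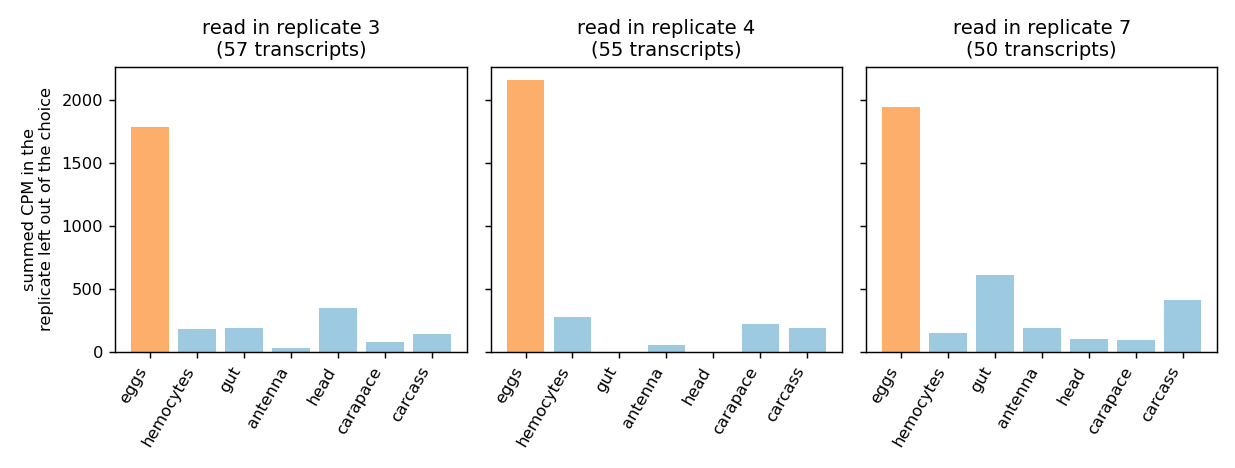
Summed CPM (vertical axis) by body part (horizontal axis) of transcripts chosen on 2 replicates, read in the replicate left out of the choice, with 1 bar per library and 1 panel per replicate left out. Eggs are the highest bar in each panel, at 1785, 2155 and 1945 CPM, and the next highest are head in replicate 3, hemocytes in replicate 4 and gut in replicate 7.

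The median egg share of single chosen transcripts in the replicate left out was 68.1%, 64.2% and 66.4%, against 26.1%, 28.2% and 26.5% for the others in the same range. Of the chosen transcripts with any read in the replicate left out, 37.5%, 34.5% and 24.5% again had at least 80% of their CPM in eggs, against 3.23%, 3.76% and 1.39% of the others in the same range. No egg read at all was seen for 5 of 57, 2 of 55 and 2 of 50. The highest body part after eggs was the head in replicate 3 (349 CPM), hemocytes in replicate 4 (274 CPM) and gut in replicate 7 (607 CPM). The gut values rest on few reads, since 1 read was worth 37.9 CPM in replicate 7. In replicate 4 the gut gave 0 CPM, from a library in which 1 read was worth 240 CPM. Of the 56 transcripts of the full choice, 30, 31 and 25 were found again when replicate 3, 4 or 7 was left out.

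Some of the 56 do not stand for separate observations. Counts were equal in all 21 libraries for 3 sets that cover 7 of them, so the 56 have 52 distinct count profiles. These sets were picked out after their values were seen. In the largest, maker-falcon_000067F-snap-gene-2.55-mRNA-1, maker-falcon_000067F-snap-gene-2.69-mRNA-1 and maker-falcon_000067F-snap-gene-3.181-mRNA-1 each had 15 reads, with 1, 1 and 10 in eggs and 1 each in hemocytes of replicate 7, antenna of replicate 7 and carcass of replicate 4. Their models have 608, 680 and 680 bases on 1 contig. The 2 other sets are pairs with 12 reads per model, each with 1 model on contig falcon_000001F and 1 on falcon_000002F. All 7 belong to the 31 with 10 to 19 reads, where they make up 22.6%, and 2.93% of the 341 other rare transcripts in that range had such a double. Reads counted for several near-identical models and chance ties of small counts cannot be told apart in these files, so these 7 levels are uncertain, and the summed levels above count them once per model.

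A related pattern held on contig falcon_000003F, which has the most members, 6. It is a large contig, with 1060 models and 153 rare transcripts with a read in each egg library. Members are 3.92% of those 153, against 1.75% over all contigs and 21.4% on falcon_000067F (3 of 14). By identifier the 6 start with augustus_masked-falcon_000003F-processed-gene-40.100-mRNA-1 (6, 2 and 3 egg reads) and maker-falcon_000003F-augustus-gene-23.99-mRNA-1 (8, 1 and 8). Nearly the same counts as in the second of these were found for maker-falcon_000003F-augustus-gene-25.4-mRNA-1 (8, 1 and 11) and for the model just below the line, maker-falcon_000003F-augustus-gene-25.7-mRNA-1 (8, 1 and 7). Another like pair was maker-falcon_000003F-snap-gene-27.41-mRNA-2 (11, 4 and 11) and maker-falcon_000003F-augustus-gene-27.93-mRNA-2 (12, 4 and 9). Each of the 4 members of these like sets had 3 carapace reads, all in replicate 4. Their lengths were 861 to 1392 bases. The like sets were picked out after their values were seen.

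Length was not used in the choice, and the chosen models were shorter than the other rare transcripts with a read in each egg library. Their median length was 1142 bases (quartiles 598 and 1718), against 2085 bases (quartiles 1191 and 3356) for the other 3142. The median of the chosen moved with the choice. It was 1232 bases with a line of 70% (132 transcripts), 1683 with a line of 90% (15) and 1331 with TMM factors (21). All 33957 models had a median of 927 bases, and the 12 rare transcripts chosen in the same way for antenna had 1081 bases. Under 1000 bases were 26 of the 56 (46.4%), 19.6% of the other 3142 and 52.0% of all models. Chosen and other rare transcripts also differ in reads, with medians of 17.5 and 50. Within bands of total reads the chosen and the other transcripts had median lengths of 1166 and 1430 bases at 10 to 19 reads (n = 31 and 341), 1218 and 1856 at 20 to 49 (n = 17 and 1224), and 1017 and 2390 at 50 to 99 (n = 8 and 1577). The lengths overlap widely in each band, from 195 to 12675 bases among the 56, and no test was made, since models are not replicates. The longest, maker-falcon_000085F-snap-gene-1.64-mRNA-1, had 8, 32 and 14 egg reads on 12675 bases.

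**Figure D5:**
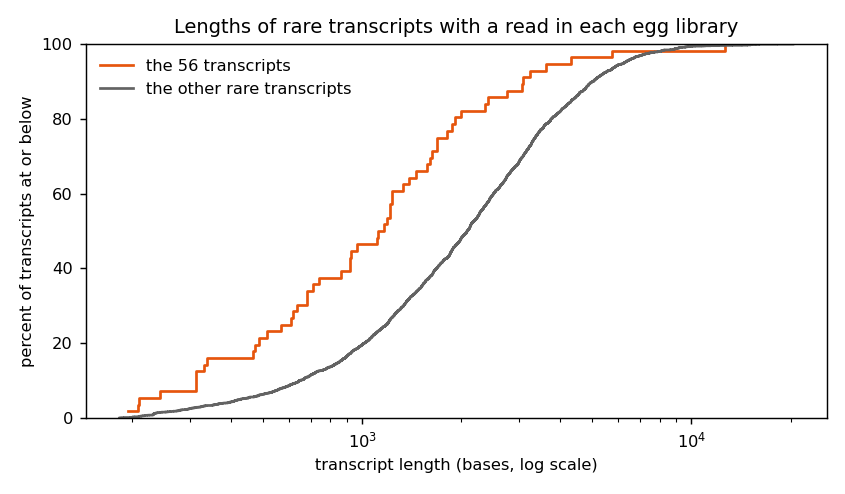
Cumulative percent of transcripts (vertical axis) at or below a length in bases (horizontal axis, log scale) for the 56 transcripts and the 3142 other rare transcripts with a read in each egg library. The curve of the 56 lies to the left over most of its range, with medians of 1142 and 2085 bases.

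The identifiers also name the gene finder behind each model. Models built from snap within maker were 25 of the 56 (44.6%), 23.6% of the other 3142 rare transcripts and 37.6% of all 33957 models. Models built from augustus within maker were 18 (32.1%), 55.7% and 26.9%. Models named for a gene finder alone were 13 (23.2%), 20.7% and 35.5%. The suffix of a second or later isoform was on 8 of the 56 (14.3%), on 24.6% of the others and on 10.2% of all models. Lengths were a multiple of 3 for 30 of the 56 (53.6%), for 46.8% of the others and for 23767 of all 33957 models.

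The same choice was also made for each of the other body parts. The share of at least 80% alone was met by 60 rare transcripts for eggs, 44 for antenna, 29 for head, 7 for gut, 5 for carcass, 3 for hemocytes and 2 for carapace. The same 3 conditions together, with another body part in the place of eggs, gave 12 transcripts for antenna, 9 for head, 3 for carcass and 0 for hemocytes, gut and carapace. Among transcripts with 100 reads or more they gave 6 for eggs, 6 for antenna, 31 for head, 1 each for carapace and carcass, and 0 for hemocytes and gut, so the order is not kept at higher counts. A read in all 3 libraries, which depth makes easier, was found for 3198 rare transcripts in eggs and 3233 in carcass. It was found for 1606 in carapace, 1253 in antenna, 1249 in hemocytes, 1133 in head and 19 in gut. Carapace and hemocytes gave 0 under the 3 conditions together. Set beside the share alone, the 3 conditions left 56 of 60 for eggs, 12 of 44 for antenna and 9 of 29 for head. How far a read in all 3 libraries sets the order was not tested. Between eggs and carcass, which were close by that condition, a share of at least 50% was reached by 561 and 107 rare transcripts, and it was reached by 204 for gut, 195 for carapace, 191 for antenna, 127 for head and 51 for hemocytes. The counts were not tested against each other, and with TMM factors in the CPM the number for eggs is 21 and not 56.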

How the data were processed

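Oxford Nanopore cDNA reads of 7 barcoded body parts in 3 pools (replicates 3, 4 and 7) were counted per model transcript. Counts were used as deposited, as whole reads per transcript and library, per the file headers. The deposited RPKM values, per the file headers, scale with the reads of a whole pool (926451, 988239 and 2424632 reads in replicates 3, 4 and 7) and were not used. Transcript lengths are those deposited. SAMtools and DESeq2 appear in the submitters' processing notes. The aligner, the genome build, the annotation and the handling of reads that near-identical models share were each not given in the sources used here.

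CPM are reads per 1000000 reads of the library. The 3 conditions of the choice use reads and CPM only. Members, lists and tests were chosen with earlier results of these data known. Identifiers are given for at most 2 transcripts in a description, by total reads, level per length, spread between egg libraries, contig, distance from the 80% line or adjusted p, and others are said to have been picked after their values were seen.

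Tests used edgeR 4.0.16 in R 4.3.3 on 11259 transcripts with at least 10 reads in total, with TMM factors (0.29 to 2.35) and 1 mean per body part over all 21 libraries (common dispersion 0.29). All were two-sided, adjusted by the Benjamini-Hochberg method, with a threshold of 0.05. DESeq2 1.42.0 and limma 3.58.1 (voom) were alternatives, and the code was tested on simulated data. The replicate number marks a shared pool, which pairs the libraries. Of 63 pairs with the same number, 22 had deviations from the body part means that correlated above 0.1 (median 0.054, range -0.351 to 0.34). The model without this block was kept as the main one, so its tests do not use the pairing. With the block, the joint test called 1294 transcripts and not 1115. Floors and intervals cover counting error only.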

Additional observations from a re-analysis of the deposited data

How the results depend on the processing

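Of the 56 transcripts, 0 were called different among the 6 other body parts under each of the 31 alternatives run. This count is bounded by the choice, and its repetition is no support. The filter of 10 total reads counts egg reads, and reads outside eggs had a median of 3 per transcript. Not all 56 were tested each time, with 2 after filterByExpr, 30 without replicate 7, 43 without replicate 4 and 46 without replicate 3. DESeq2 gave 51 of them no adjusted p. Over all transcripts that joint test called 1115, and 533 after filterByExpr, which tests 4035. With 1 library or replicate left out it called 726 (without replicate 7) to 1523. With eggs set against the rest, 1578 were called higher, 2571 with RLE factors, 3085 with library totals and 843 after filterByExpr. Higher calls were 57.7% of all egg calls, 72.0% with RLE factors, 80.5% with library totals, 46.9% after filterByExpr and 25.1% by limma voom. With 1 library or replicate left out the higher calls ran from 790 to 1879. They were 790 without replicate 3, 1011 without replicate 4, 997 without eggs of replicate 3 and 1023 without eggs of replicate 7. Of the 56, 56 were called in this contrast by edgeR, 11 by DESeq2 (15.8% of all tested), 29 by limma voom (10.6%) and 2 after filterByExpr (20.9%), which tests only 2 of them. Leave-one-out counts ran from 30 to 56: 36 of the 46 that still reach 10 reads without replicate 3, 30 of 30 without replicate 7 and 33 of 33 without eggs of replicate 7. With the replicate block the counts were 1294 in the joint test, with 0 of the 56, and 1684 higher in eggs, with 56 of the 56, so pairing changed no call on the 56.

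The choice itself depended on scaling. With TMM factors 21 transcripts met it, all among the 56. With reads summed per body part 43 did, 39 of them among the 56, without the gut of replicate 4 there were 54, and without the 3 gut libraries, an alternative added after the data were seen, 65. The shares in the replicate left out averaged 69.1% with a line of 90% and 66.8% with summed reads. Depth limits all single levels here, since 1 read was worth 3.07 to 6.28 CPM in eggs.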

Other observations

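Gene numbers in the identifiers have a first and a second part, and models with the same contig and first part were set together as blocks, whose distance is not in the files. The 56 transcripts lay on 28 of 572 contigs and in 51 blocks, of which 5 held 2 members each. Other transcripts with at least 10 reads in those blocks (n = 550) had a median egg share of 20.4%, against 18.9% for the 10653 in blocks without a member. Contig falcon_000085F has 15 transcripts, its 2 rare ones with a read in each egg library are both among the 56, and no other transcript of their block reached 10 reads. Those are maker-falcon_000085F-snap-gene-1.59-mRNA-1, with 74 reads on 312 bases, and maker-falcon_000085F-snap-gene-1.64-mRNA-1, with 64 reads on 12675 bases, picked out after their values were seen. On contig falcon_000026F, snap_masked-falcon_000026F-processed-gene-4.124-mRNA-1 and snap_masked-falcon_000026F-processed-gene-4.112-mRNA-1 are both 312 bases long, had 45 and 22 reads, and had 2 and 1 of these outside eggs, all in hemocytes. This pair, too, was picked out after its values were seen.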
